A study of Homo sapiens with 7 samples.

Results

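The 10 genes described here are ZNF224 and its neighbours ZNF225, ZNF226, ZNF227, ZNF230, ZNF234, ZNF155, ZNF221, ZNF222 and ZNF223, which encode KRAB zinc finger proteins and lie together in band q13 of chromosome 19. They were taken by name, with no rule on their levels, as 10 rows of a table of raw counts with 60675 gene identifiers. Earlier results of these data were known when the genes were chosen. All 10 were among the 16583 genes with enough counts to be tested. The table covers 7 RNA sequencing libraries from MDA-MB-231, an established human triple-negative breast cancer line, labelled wild type for DEPDC1. In 3 libraries (siCTL) the cells had received a control siRNA, and in 4 (siDEPDC1) an siRNA against DEPDC1. Both groups got 5 µl of a 20 µM siRNA stock with the same transfection reagent, had their medium changed after 8 h and were harvested 2 days after transfection. The siRNA sequence and the number of duplexes were not used here, and the untransfected line was not among the samples. Whether each replicate was its own culture is not stated in the labels. The p-values therefore reflect no more than library-to-library spread, part of which may be technical.

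A KRAB zinc finger protein carries an array of C2H2 zinc fingers that reads DNA and an amino-terminal KRAB domain that binds the scaffold protein TRIM28. TRIM28 in turn brings the histone H3 lysine 9 methyltransferase SETDB1, HP1 proteins and the NuRD deacetylase complex, and the bound site is silenced. ZNF224 is also known for recruiting the arginine methyltransferase PRMT5, and as a partner of DEPDC1 in a complex reported to repress TNFAIP3, the gene of the NF-kB inhibitor A20. The genes of this cluster arose by tandem duplication. The comparison of siDEPDC1 with siCTL asks whether the RNA of ZNF224 and its neighbours differed when the RNA of that partner was reduced.

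All 10 genes lay on the plus strand between positions 43951223 and 44237268 of chromosome 19 (GRCh38, GENCODE release 29), a span of 286 kb. ZNF224 (ENSG00000267680) occupied 44094339 to 44109886. In order along the chromosome the genes were ZNF221 (43951223 to 43967709), ZNF155 (43967862 to 43998325), ZNF230 (44002948 to 44013926), ZNF222 (44025342 to 44033112), ZNF223 (44051367 to 44067991), ZNF224, ZNF225 (44112181 to 44134816), ZNF234 (44141557 to 44160309), ZNF226 (44165073 to 44178381) and ZNF227 (44207547 to 44237268).

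The promoters of these genes are shown because they are a feature that the choice of genes did not use. RefSeq's promoter table (GRCh38.p14, 250 bases before to 50 after each transcript start) held 7 of the 10 genes. It had no entry for ZNF155, ZNF221 or ZNF223. Its starts can differ from the GENCODE starts given above. The GENCODE start of ZNF224, 44094339, lies within the bases printed below, and the RefSeq starts of ZNF225 and ZNF227 lie inside the GENCODE genes. The 250 bases upstream of the ZNF224 start, chr19:44094111-44094360 on the plus strand, are printed 5′ to 3′ with the 9-base string TTCTGGGAA and the 5-base string AGTCC that follows it after 4 bases in capitals.
ZNF224 promoter: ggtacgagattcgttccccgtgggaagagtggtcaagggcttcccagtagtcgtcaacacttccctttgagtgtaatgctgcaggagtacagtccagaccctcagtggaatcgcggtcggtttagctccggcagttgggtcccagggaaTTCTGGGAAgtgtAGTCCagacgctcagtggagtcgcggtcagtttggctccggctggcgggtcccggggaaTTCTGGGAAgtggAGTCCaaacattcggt

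The string was picked after reading these promoters, so its count among them is a description. All 7 promoters held it, in 13 copies that were all on the plus strand, with 4 copies in ZNF225, 2 each in ZNF224, ZNF230 and ZNF227, and 1 each in ZNF222, ZNF234 and ZNF226. Searched on both strands in the same way, 361 of 35116 promoters in the table held it (1.03%), and 15 held 2 or more copies (0.0427%). The string followed after 4 bases by AGTCC occurred in 6 of the 7 promoters, the exception being ZNF227, and in 43 of all 35116 (0.122%). The first base of the copies lay between 225 and 26 bases before the start. Each copy is printed with 8 bases before it and 17 after, and the strings are in capitals.
ZNF230 copy 1, chr19:44002829-44002862: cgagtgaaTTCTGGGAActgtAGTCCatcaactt
ZNF230 copy 2, chr19:44002899-44002932: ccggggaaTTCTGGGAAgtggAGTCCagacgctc
ZNF222 copy 1, chr19:44025271-44025304: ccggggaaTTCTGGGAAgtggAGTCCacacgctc
ZNF224 copy 1, chr19:44094252-44094285: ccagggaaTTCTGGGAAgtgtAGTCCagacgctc
ZNF224 copy 2, chr19:44094324-44094357: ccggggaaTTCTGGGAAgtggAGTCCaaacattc
ZNF225 copy 1, chr19:44113166-44113199: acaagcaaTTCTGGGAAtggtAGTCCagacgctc
ZNF225 copy 2, chr19:44113237-44113270: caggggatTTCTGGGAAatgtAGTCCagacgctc
ZNF225 copy 3, chr19:44113309-44113342: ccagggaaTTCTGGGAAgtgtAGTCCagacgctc
ZNF225 copy 4, chr19:44113365-44113398: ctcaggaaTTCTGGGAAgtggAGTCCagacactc
ZNF234 copy 1, chr19:44141520-44141553: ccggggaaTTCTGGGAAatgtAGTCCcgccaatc
ZNF226 copy 1, chr19:44165037-44165070: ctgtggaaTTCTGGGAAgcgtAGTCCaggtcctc
ZNF227 copy 1, chr19:44212429-44212462: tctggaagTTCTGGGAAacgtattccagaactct
ZNF227 copy 2, chr19:44212489-44212522: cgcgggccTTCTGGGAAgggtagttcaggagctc

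The 34 bases of ZNF224 copy 1 and ZNF225 copy 3 were the same at 34 of 34 positions, and ZNF230 copy 2 matched ZNF222 copy 1 at 33 of 34. Copies within a promoter were 72 bases apart in ZNF224, 70 in ZNF230, 60 in ZNF227, and 71, 72 and 56 in ZNF225. Among the other zinc finger genes of the cluster, 6 of the 12 in the promoter table held the string. Of 254 promoters of all other genes with a ZNF number on chromosome 19, the rest of the cluster among them, 16 held it (6.3%), and of 258 such promoters on other chromosomes 9 held it (3.49%). Followed by AGTCC, the string was in 5 of 16 promoters of the other cluster genes (31.2%). In that form it was in 9 of the 254 (3.54%) and 2 of the 258 (0.775%). The letters resemble the binding motif known for ZNF143, and the spacing of TTC and GAA is that of STAT sites. A match of letters is not a bound site.

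DEPDC1 itself, whose protein has a DEP domain, fell in every siDEPDC1 library. Its level was 114.3, 119.3 and 120.3 CPM (counts scaled to library size, with TMM factors) in siCTL, and 15.26, 12.67, 13.42 and 11.94 CPM in siDEPDC1 replicates 1 to 4. The log2 fold change of siDEPDC1 over siCTL was −3.15 ± 0.0753 (SE), an 8.89-fold fall (adjusted p = 1.2e-26, edgeR quasi-likelihood test with Benjamini-Hochberg adjustment). Library totals ran from 11704246 to 15360409 counts in siCTL and from 7690583 to 13483305 in siDEPDC1. Of the markers of the line, VIM, CD44, EGFR and AXL summed to 5526 to 5916 CPM in siCTL and 5474 to 5907 in siDEPDC1, most of it VIM. EGFR fell without overlap, from 562 ± 29.4 to 462 ± 28.1 CPM (SD, n = 3 and 4; log2 fold change −0.28, adjusted p = 0.00018, edgeR). The hormone receptor genes ESR1 and PGR summed to at most 0.781 CPM in any library. Of 6 markers of other cell types, PTPRC and CD3E were near 0, while PECAM1 (9.78 to 14.2 CPM) and EPCAM (10.1 to 12.5 CPM) were not. The list summed to 37.6 to 40.2 CPM in siCTL and 51.6 to 59.6 in siDEPDC1. In siDEPDC1 COL1A1 was higher (means of 12.9 and 30.2 CPM), as was CD14 (2.06 and 3.25 CPM). The part of this difference in the results below was not tested. In bulk RNA, fewer cells that express a gene and less RNA per cell cannot be told apart.

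Of the 10 genes, ZNF224 alone passed the test. It fell 1.22-fold, from 26.9 ± 3.56 CPM (SD, n = 3) to 22 ± 2.97 CPM (SD, n = 4), and none of the 10 rose. Its libraries gave 24.97, 24.74 and 31.02 CPM in siCTL and 26.41, 21.07, 20.58 and 19.96 CPM in siDEPDC1, from 158 to 377 counts each. The groups overlapped, since siDEPDC1 replicate 1 lay above siCTL replicates 1 and 2. The other 3 siDEPDC1 libraries lay below all 3 siCTL libraries. On the log2 scale the change was −0.28 ± 0.0939 (SE), with a 95% interval of −0.47 to −0.09 (adjusted p = 0.018, edgeR quasi-likelihood test, Benjamini-Hochberg). Genes called lower made up 17.9% of all tested genes and genes called higher 16.5%, or 34.4% together, so 1 call among 10 genes did not exceed the share over all genes. The call was lost without siCTL replicate 3 (log2 fold change −0.18, adjusted p = 0.16) and without siDEPDC1 replicates 2 (−0.26, 0.069), 3 (−0.25, 0.058) or 4 (−0.23, 0.065), and under DESeq2 (−0.28, 0.052). With a GC and length trend removed the log2 fold change was smaller, at −0.19 (adjusted p = 0.042, edgeR). Without siDEPDC1 replicate 1 the log2 fold change was −0.38 (adjusted p = 0.0011), and over all 16 alternatives the adjusted p ran from 0.0011 to 0.16.

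**Figure D1:**
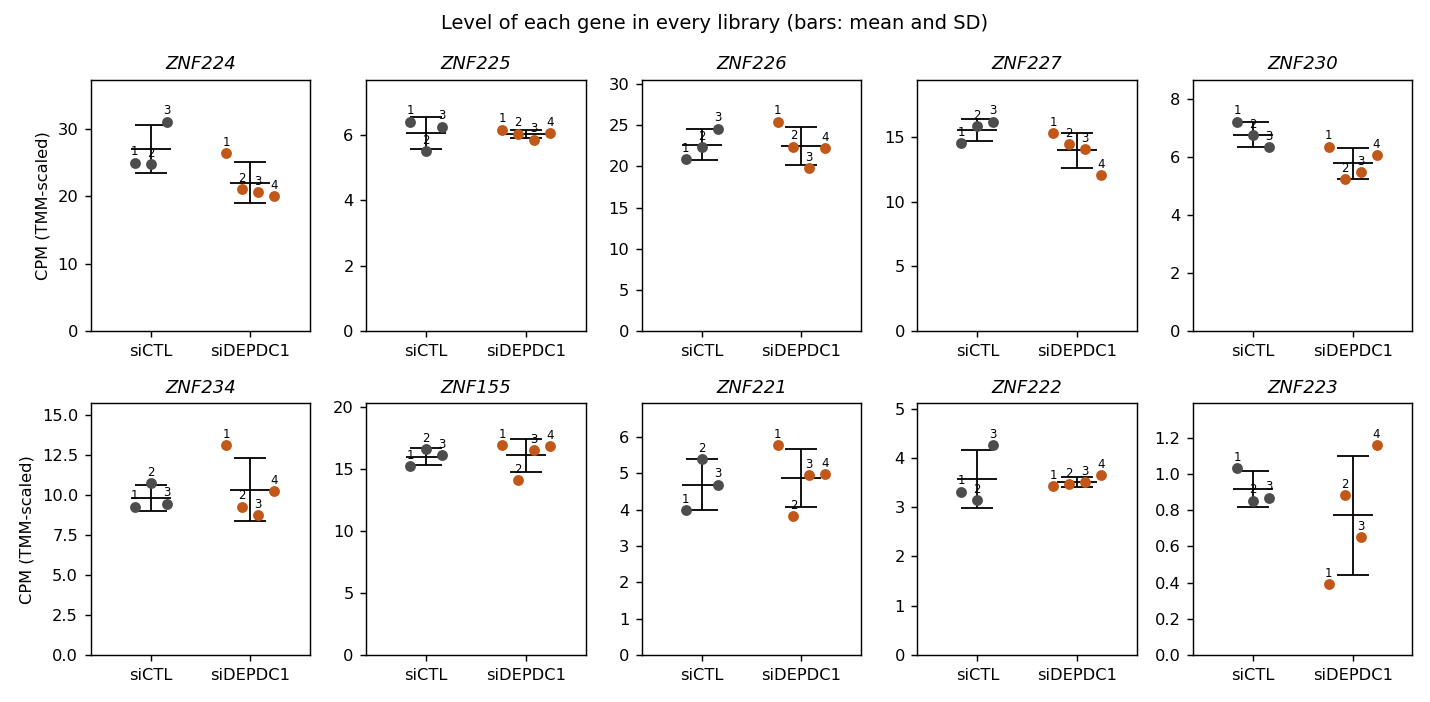
Level of each of the 10 zinc finger genes in CPM (vertical axis, starting at 0) in the 3 siCTL and 4 siDEPDC1 libraries; points are libraries with their replicate numbers, and bars are the mean and SD of the group. The groups overlap in all 10 panels; in the ZNF224 panel siDEPDC1 replicate 1 (26.41 CPM) lies among the siCTL points and the other 3 lie below them.

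A further limit on the ZNF224 value was a gene on the opposite strand. ZNF225-AS1 (ENSG00000186019, minus strand, 44105463 to 44113145) shared 2875 of the 7104 annotated exon bases of ZNF224 (40.5%), and 1846 of the 3881 windows of 100 bases in the ZNF224 transcript used here (47.6%). No source used here gives the strand setting of the counting, and without strand, reads from this shared stretch cannot be told apart. ZNF225-AS1 was at 16.13, 16.08 and 17.46 CPM in siCTL and 18, 12.15, 13.02 and 11.23 CPM in siDEPDC1. As for ZNF224, siDEPDC1 replicate 1 was the highest of its group and the other 3 lay below all siCTL libraries. ZNF225-AS1 had a log2 fold change of −0.29 ± 0.114 (SE) with an adjusted p of 0.047 by edgeR's quasi-likelihood test. That call was lost under 12 of 16 alternatives, among them the omission of any library other than siDEPDC1 replicate 1 (adjusted p over the alternatives 0.0006 to 0.2).

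None of the other 9 genes passed the threshold, with log2 fold changes from −0.24 to 0.07. By edgeR 1 of the 10 genes was lower at an unadjusted p under 0.05 (ZNF224) and 0 were higher, and by DESeq2 0 were lower after adjustment. The 10 genes had 6 negative and 4 positive values with a median log2 fold change of −0.004, beside 0.0009 over all tested genes. In 0 of the 10 did the siCTL and siDEPDC1 libraries fail to overlap, against 37.3% of all tested genes. The 95% intervals below show which sizes of change each gene's counts leave possible, and an adjusted p above 0.05 does not show that a gene was unchanged.

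ZNF226 and ZNF227 were, with ZNF224, ZNF155 and ZNF234, the genes with the most counts. ZNF226 (ENSG00000167380) gave 20.85, 22.38 and 24.59 CPM in siCTL and 25.43, 22.39, 19.8 and 22.19 CPM in siDEPDC1. Its siDEPDC1 libraries held both its highest and its lowest value. Between the groups the log2 fold change was 0.0008 ± 0.0868 (SE), with a 95% interval of −0.18 to 0.18. ZNF227 (ENSG00000131115) gave 14.51, 15.82 and 16.16 CPM in siCTL and 15.26, 14.44, 14.07 and 12.03 CPM in siDEPDC1. Here 3 of the 4 siDEPDC1 libraries lay below all siCTL libraries, as for ZNF224, and replicate 4 was the lowest. Its log2 fold change was −0.15 ± 0.0989 (SE), the interval ran from −0.35 to 0.05, and the adjusted p was 0.25 by edgeR's quasi-likelihood test.

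ZNF155 (ENSG00000204920) gave 15.25, 16.61 and 16.16 CPM in siCTL and 16.92, 14.14, 16.54 and 16.84 CPM in siDEPDC1. Apart from siDEPDC1 replicate 2, its libraries stayed between 15.25 and 16.92 CPM. Between groups ZNF155 had a log2 fold change of −0.0003 ± 0.0937 (SE), with a 95% interval of −0.19 to 0.19. ZNF234 (ENSG00000263002) gave 9.281, 10.76 and 9.47 CPM in siCTL and 13.11, 9.28, 8.726 and 10.25 CPM in siDEPDC1. Its siDEPDC1 replicate 1 stood above the other 6 libraries. With all libraries, the log2 fold change of ZNF234 was 0.07 ± 0.123 (SE), the highest of the 10, with an interval of −0.18 to 0.32, and it was −0.06 without that library.

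ZNF230 (ENSG00000159882) gave 7.219, 6.76 and 6.342 CPM in siCTL and 6.358, 5.229, 5.47 and 6.059 CPM in siDEPDC1. As for ZNF224, 3 of its siDEPDC1 libraries lay below all siCTL libraries, and replicate 1 was just above the lowest siCTL library. Its log2 fold change was −0.24 ± 0.135 (SE), with a 95% interval of −0.51 to 0.04 and an adjusted p of 0.18 by edgeR's quasi-likelihood test. ZNF225 (ENSG00000256294), the gene next to ZNF224 downstream, gave 6.408, 5.513 and 6.255 CPM in siCTL and 6.163, 6.04, 5.861 and 6.059 CPM in siDEPDC1. All 4 siDEPDC1 values lay inside the siCTL range. For ZNF225 the log2 fold change was 0.0011 ± 0.135 (SE), with an interval of −0.27 to 0.27.

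ZNF221 (ENSG00000159905) gave 3.978, 5.382 and 4.691 CPM in siCTL and 5.771, 3.83, 4.949 and 4.989 CPM in siDEPDC1, a log2 fold change of 0.03 ± 0.163 (SE; 95% interval −0.30 to 0.37). ZNF222 (ENSG00000159885) gave 3.315, 3.15 and 4.257 CPM in siCTL and 3.424, 3.462, 3.517 and 3.653 CPM in siDEPDC1, a log2 fold change of −0.01 ± 0.176 (SE; interval −0.36 to 0.35). The siDEPDC1 libraries of ZNF222 were all inside its siCTL range, while those of ZNF221 reached past it on both sides. ZNF223 (ENSG00000178386) had 14, 13 and 10 counts in siCTL and 4, 12, 5 and 13 in siDEPDC1. Its 4 siDEPDC1 libraries spread from 0.391 to 1.16 CPM around siCTL values of 0.853 to 1.03 CPM. Its log2 fold change was −0.21 ± 0.355 (SE), and with an interval of −0.93 to 0.52 a fall or a rise of the size seen for ZNF224 was not detectable with these counts.

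Several genes shared a high siDEPDC1 replicate 1. It held the highest siDEPDC1 value for 8 of the 10 genes, the exceptions being ZNF222 and ZNF223. The 10 genes summed to 106.8, 112 and 119.8 CPM in siCTL and to 119.2, 100.8, 100.2 and 103.2 CPM in siDEPDC1, so replicate 1 lay within the siCTL range and the other 3 below it. Other genes with a ZNF number on chromosome 19 were also highest there, with 3492 CPM in that library against 3187 to 3290 in the other siDEPDC1 libraries and 3079 to 3214 in siCTL. Genes with a ZNF number on other chromosomes summed to 5103 CPM there, against 4808 to 4835 in the other siDEPDC1 libraries and 4889 to 5013 in siCTL. The median log2 fold change of the 10 genes was −0.06 without that library, −0.06 without siCTL replicate 1 and −0.085 without siCTL replicate 2. Without siCTL replicate 3 it was 0.0132, and without siDEPDC1 replicates 2, 3 and 4 it was 0.0039, −0.0063 and −0.0249.

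**Figure D2:**
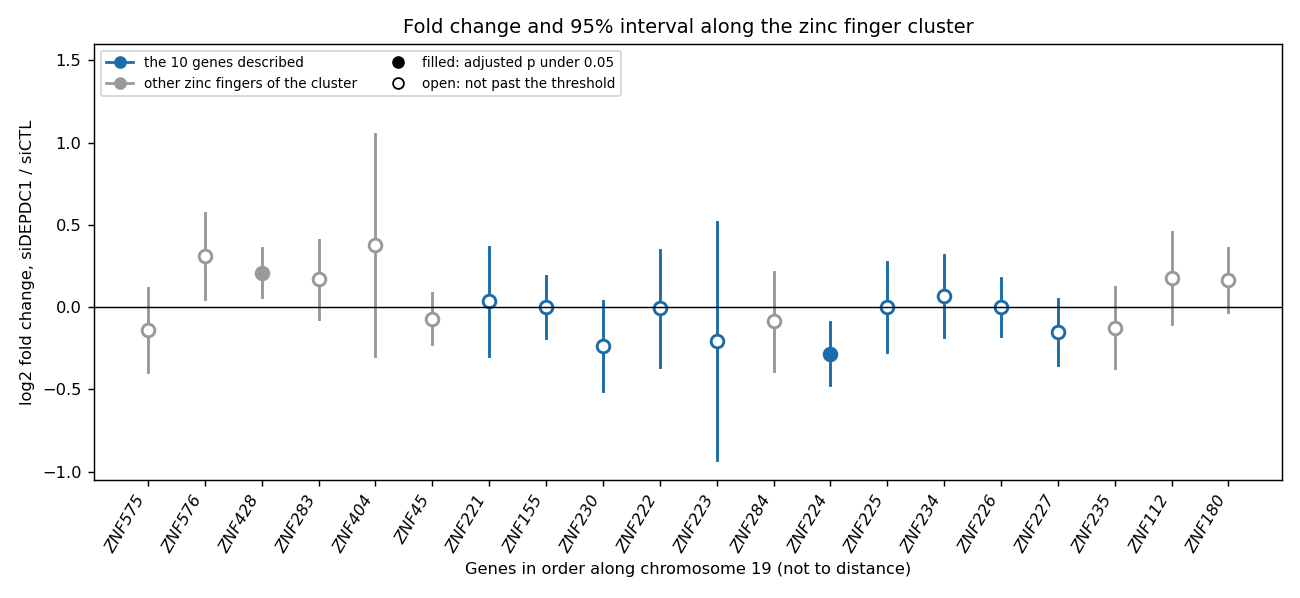
Log2 fold change of siDEPDC1 over siCTL (points) with its 95% interval (lines) for the tested zinc finger genes in their order along chromosome 19; blue marks the 10 genes described, grey their neighbours, and filled points an adjusted p under 0.05 (edgeR). ZNF224 (−0.28) is the one filled blue point and ZNF428 (0.21) the one filled grey point, and the widest blue interval is that of ZNF223.

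Per kilobase of annotated exon, the genes differed far more from each other than between the groups. The mean over the 7 libraries was highest for ZNF155, at 4.65 CPM per kb, followed by ZNF224 (3.39), ZNF226 (3.25), ZNF227 (2.88), ZNF234 (1.94), ZNF222 (1.77), ZNF221 (1.77), ZNF230 (0.985), ZNF225 (0.836) and ZNF223 (0.251). Neighbours in this order overlapped in their ranges over libraries, except that ZNF221 stood clear of ZNF230 and ZNF225 clear of ZNF223. ZNF224 itself averaged 3.79 CPM per kb in siCTL and 3.10 in siDEPDC1. Exon length here is the union of all annotated exons, so a gene with many unused exons is placed too low. How reads shared with overlapping genes were counted is also not known. Opposite-strand genes shared 41.4% of the exon bases of ZNF155, 40.5% of those of ZNF224 and 19.1% of those of ZNF227. A same-strand gene shared 45.4% of those of ZNF223 and 17.2% of those of ZNF222. The part of these overlaps in the order was not tested.

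**Figure D3:**
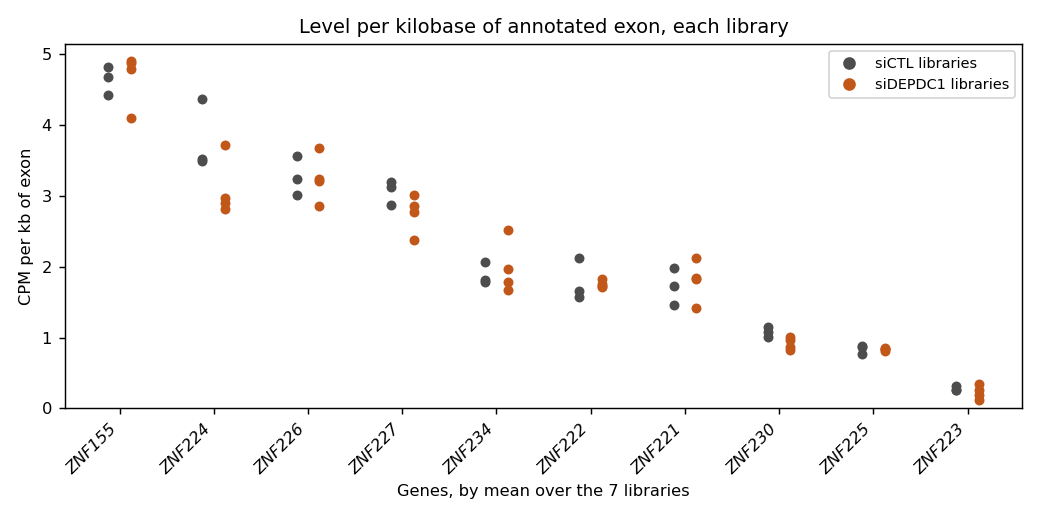
Level per kilobase of annotated exon (CPM per kb, vertical axis from 0) of the 10 genes in each library, ordered by the mean over all 7; dark points are siCTL and orange points siDEPDC1 libraries. ZNF155 (mean 4.65) is at the left end and ZNF223 (mean 0.251) at the right, and within each gene the colours overlap.

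Because the genes are duplicates of each other, it was checked whether their reads could be shared. Coding sequences of the transcripts used (GENCODE release 29) ran from 1353 bases in ZNF222 to 2409 in ZNF226. The codon pattern of a C2H2 finger, found without allowance for degenerate fingers, occurred 18 times each in ZNF224, ZNF227 and ZNF234, 17 times each in ZNF225 and ZNF226, 15 in ZNF221, 11 in ZNF155, 8 each in ZNF222 and ZNF223, and 7 in ZNF230. Aligned coding sequences were identical at 66.3% (ZNF225 and ZNF227) to 88.7% of bases (ZNF230 and ZNF155), and ZNF224 at 87.9% with ZNF221 and 86.7% with ZNF225. In spite of this, no window of 100 bases, the read length, in the transcripts used was shared exactly between any 2 of the 10 genes. Matches with mismatches were not searched, so this cannot decide whether reads aligned with mismatches were shared. The longest exact run between coding sequences was 86 bases, between ZNF155 and ZNF221, and ZNF224 shared at most 62 with ZNF225. Exact sharing of windows came from overlapping genes instead. ZNF230-DT on the opposite strand covered 41.4% of the exon bases of ZNF155, and ZNF235, also opposite, covered 19.1% of those of ZNF227. The same-strand gene ENSG00000267022 covered 45.4% of the exon bases of ZNF223 and 17.2% of those of ZNF222, and was listed at 0 in all 7 libraries. No source used here says how reads in such stretches were assigned. ZNF225, ZNF226, ZNF230, ZNF234 and ZNF221 shared 0 windows with any annotated gene.

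The 7-base word GATAACT was present in the 3′ UTR of 514 of 2507 genes called lower (20.5%), 79 of 2315 called higher (3.41%) and 953 of all 12342 tested genes with a 3′ UTR of at least 50 bases (7.72%). How the word was picked is not recorded here, so these shares are a description and not a test. None of the 9 zinc finger genes with such a 3′ UTR had it, ZNF224 included. For ZNF226 the 3′ UTR of the transcript used was only 9 bases long, and other isoforms were not searched.

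The genes whose profile over the 7 libraries was most like that of ZNF224 were not zinc finger genes. Likeness was the root mean square difference of mean-centred log2 CPM, over 11435 genes with a symbol and a mean of at least 5 CPM. The nearest were CCNL1, which encodes cyclin L1 (0.0379), PIGF, a gene of GPI anchor synthesis (0.0521), and MSANTD4 (0.0562). CCNL1 gave 48.1, 48.04 and 58.29 CPM in siCTL and 49.79, 39.55, 37.51 and 39.74 CPM in siDEPDC1, with the same high siCTL replicate 3 and siDEPDC1 replicate 1 as ZNF224. ZNF225-AS1 was at rank 213 (0.103). Of the other 9 genes, ZNF221, ZNF222 and ZNF223 were below 5 CPM and were not ranked. The nearest of those ranked was ZNF227, at rank 775 (0.132), and then ZNF226 at rank 1822.

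The rest of the cluster was measured in the same way through 13 further zinc finger genes, of which 10 could be tested. By edgeR 1 of these was higher and 0 lower, with 2 higher and 0 lower at an unadjusted p under 0.05, beside 16.5% and 17.9% of all tested genes. By DESeq2 0 were higher after adjustment. The median log2 fold change was 0.17. The gene called was ZNF428, at 30.86, 30.19 and 29.28 CPM in siCTL and 33.16, 35.5, 34.65 and 35.91 CPM in siDEPDC1, with no overlap between groups. Its log2 fold change was 0.21 ± 0.0727 (SE; adjusted p = 0.024, edgeR quasi-likelihood test). The call was lost without siCTL replicates 2 (0.21, adjusted p = 0.074) or 3 (0.19, 0.079) and without siDEPDC1 replicate 2 (0.20, 0.056). It was also lost with a GC and length trend removed (0.13, 0.088), with no count filter (0.19, 0.086) and under DESeq2 (0.21, 0.053).

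Beyond the cluster, 201 other genes with a ZNF number on chromosome 19 were tested, the remaining cluster genes among them, and 30 were higher (14.9%) and 9 lower (4.48%), with a median log2 fold change of 0.05. On other chromosomes 19 of 209 were higher (9.09%) and 30 lower (14.4%), with a median of −0.03, and with scaling by library size alone 25 were higher and 23 lower. Over all tested genes 16.5% were higher and 17.9% lower. With the GC and length trend removed, 52 were higher and 12 lower on chromosome 19, and 32 higher and 35 lower elsewhere. On chromosome 19, 16 were lower without siDEPDC1 replicate 1, and 17 or 18 were higher without siCTL replicate 1 or 2. Elsewhere 19 were lower without siDEPDC1 replicate 2. The 10 genes were not tested against either set.

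**Figure D4:**
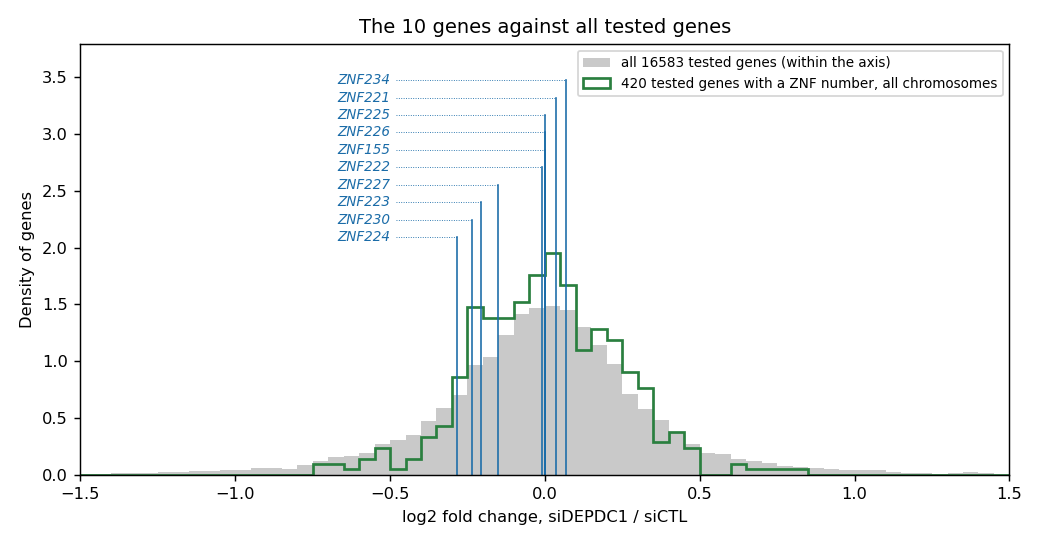
Distribution of log2 fold changes (horizontal axis, siDEPDC1 over siCTL) as density of genes over all 16583 tested genes (grey) and over the 420 tested genes with a ZNF number (green outline), with a blue line for each of the 10 genes. The lines run from −0.28 (ZNF224) to 0.07 (ZNF234), all within the bulk of both distributions.

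The cofactors that KRAB domains depend on included genes that fell and genes that rose. Of 26 genes of the KRAB corepressor machinery, all tested, 6 fell and 4 rose, or 23.1% and 15.4%, beside 17.9% and 16.5% of all tested genes, and the median log2 fold change was −0.01. With a GC and length trend removed, 8 fell and 9 rose. The scaffold TRIM28 was at 516.3, 504.9 and 449.5 CPM in siCTL and 442.8, 462.2, 485.3 and 489 CPM in siDEPDC1. The groups overlapped, and the log2 fold change was −0.06 ± 0.0574 (SE; adjusted p = 0.43, edgeR). With that trend removed it was −0.15 (adjusted p = 0.0031). The methyltransferase SETDB1 was at 47.9 ± 2.86 CPM (SD, n = 3) and 45.7 ± 0.559 CPM (SD, n = 4), with a log2 fold change of −0.07 ± 0.0678 (SE; adjusted p = 0.47, edgeR).

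The largest fall in the list was that of CBX5, which encodes HP1 alpha, a reader of methylated H3 lysine 9. It gave 218.8, 210.4 and 246.6 CPM in siCTL and 165.3, 145, 149.9 and 151.8 CPM in siDEPDC1, all 4 below all 3, a log2 fold change of −0.56 ± 0.0599 (SE; adjusted p = 3.3e-09, edgeR). HDAC1, the deacetylase of NuRD, fell from 234 ± 6.98 to 173 ± 4.79 CPM (SD, n = 3 and 4), by 0.43 on the log2 scale (adjusted p = 5.8e-08, edgeR), without overlap. For its paralog HDAC2 the log2 fold change was 0.10, short of the threshold (adjusted p = 0.19, edgeR). The smaller falls were SMARCAD1, a remodeller that binds TRIM28 (−0.30), MORC2 (−0.25) and TASOR (−0.23) of the HUSH silencing pathway, and the NuRD subunit MTA1 (−0.24). With the GC and length trend removed, the falls of CBX5 (−0.40), SMARCAD1 (−0.16), MORC2 (−0.23) and TASOR (−0.11) shrank. Those of HDAC1 (−0.44) and MTA1 (−0.31) did not. The largest rise was RBBP4, a histone chaperone subunit of NuRD, from 196 ± 7.09 to 258 ± 12.7 CPM (SD, n = 3 and 4), a log2 fold change of 0.40 ± 0.0559 (SE; adjusted p = 7.3e-07, edgeR). Its paralog RBBP7 (0.15) and UHRF1 (0.16), which reads hemimethylated DNA, rose less. The call of RBBP7 was lost without any siCTL library or siDEPDC1 replicate 2 or 3 (0.13 to 0.16, adjusted p from 0.083 to 0.11), and that of UHRF1 without any library except siDEPDC1 replicate 1 (0.13 to 0.18, adjusted p from 0.055 to 0.19). With no count filter both calls were lost (adjusted p = 0.11 and 0.15, edgeR). The UHRF1 call was also lost under DESeq2 (adjusted p = 0.062) and with the GC and length trend removed (adjusted p = 0.076, edgeR). Over the list, leaving out siCTL replicate 1, siCTL replicate 2 or else siDEPDC1 replicate 2 left 1 gene of the list higher, and leaving out siDEPDC1 replicate 3 left 2. The call of MTA1 was lost without siCTL replicate 1 (−0.19, adjusted p = 0.079).

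Genes tied to ZNF224 in the literature were collected in a list of 20, of which 18 could be tested. CDKN2A was listed at 0 in all libraries and BCL2A1 had too few counts. By edgeR 3 of the 18 fell and 4 rose, or 16.7% and 22.2%, beside 17.9% and 16.5% of all tested genes, with a median log2 fold change of 0.02. DEPDC1, the target of the siRNA, is 1 of the 3 that fell. Among partners, PRMT5 was at 153.6, 156.7 and 144.7 CPM in siCTL and 136.5, 147.5, 152 and 148.1 CPM in siDEPDC1. These ranges overlapped, with a log2 fold change of −0.06 ± 0.0566 (SE; adjusted p = 0.47, edgeR). WT1, a transcription factor that ZNF224 binds, was near the limit of detection at 1.74 ± 0.322 and 1.06 ± 0.25 CPM (SD, n = 3 and 4). WT1 had a log2 fold change of −0.73 (adjusted p = 0.042, edgeR), a call lost without siCTL replicate 1 (−0.67) or 3 (−0.63), and without siDEPDC1 replicate 1 (−0.66), 2 (−0.68) or 4 (−0.70). The call was also lost under DESeq2 (−0.73, adjusted p = 0.16) and with no count filter (−0.74, adjusted p = 0.076, edgeR). The groups overlapped.

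Among reported targets of ZNF224, SLC25A1 rose, and TNFAIP3 and ALDOA were not called. TNFAIP3, reported as repressed by ZNF224 with DEPDC1, gave 14, 11.62 and 13.38 CPM in siCTL and 12.52, 10.09, 14.72 and 12.92 CPM in siDEPDC1. The siDEPDC1 libraries held both the highest and the lowest value. Its log2 fold change was −0.07 ± 0.113 (SE; adjusted p = 0.67, edgeR), with a 95% interval of −0.30 to 0.16. ALDOA, the glycolytic aldolase gene at whose promoter ZNF224 was first described, was at only 5.49 ± 0.472 and 5.44 ± 0.773 CPM (SD, n = 3 and 4), with a log2 fold change of −0.01 ± 0.147 (SE; adjusted p = 0.97, edgeR). That level and the fold change are both uncertain because ENSG00000285043 on the same strand shares 42.3% of the exon bases of ALDOA. SLC25A1, the mitochondrial citrate carrier, rose from 67.91, 64.06 and 53.95 CPM to 71.6, 82.35, 85.96 and 92.22 CPM, without overlap. On the log2 scale this was 0.42 ± 0.0765 (SE; adjusted p = 6.5e-05, edgeR).

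CDKN1A, the p21 inhibitor of cyclin-dependent kinases, rose from 73.9 ± 0.305 to 108 ± 11.3 CPM (SD, n = 3 and 4), by 0.55 ± 0.0668 (SE) on the log2 scale (adjusted p = 4.1e-08, edgeR). MYC rose by 0.27 and CCND3, the cyclin D3 gene, by 0.24, each without overlap between groups (adjusted p = 0.00062 and 0.00094, edgeR). BAK1, a pore-forming effector of apoptosis, fell from 66.81, 71.67 and 62.99 CPM to 31.4, 30.2, 29.96 and 32.79 CPM, 2.16-fold (adjusted p = 5.9e-15, edgeR). BAK1 carries 1 copy of the word GATAACT in its 3′ UTR, as does MSANTD4, which was also called lower. RBBP4, which rose, and the cluster gene ZNF283, which was not called, carry 1 copy each, and HDAC2, which was not called, carries 2. The part of the word in these values was not tested. AXL, BAX, BIK, BAG3, VDR, WDR77 and DEPDC1B, the paralog of DEPDC1, were not called in either direction.

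**Figure D5:**
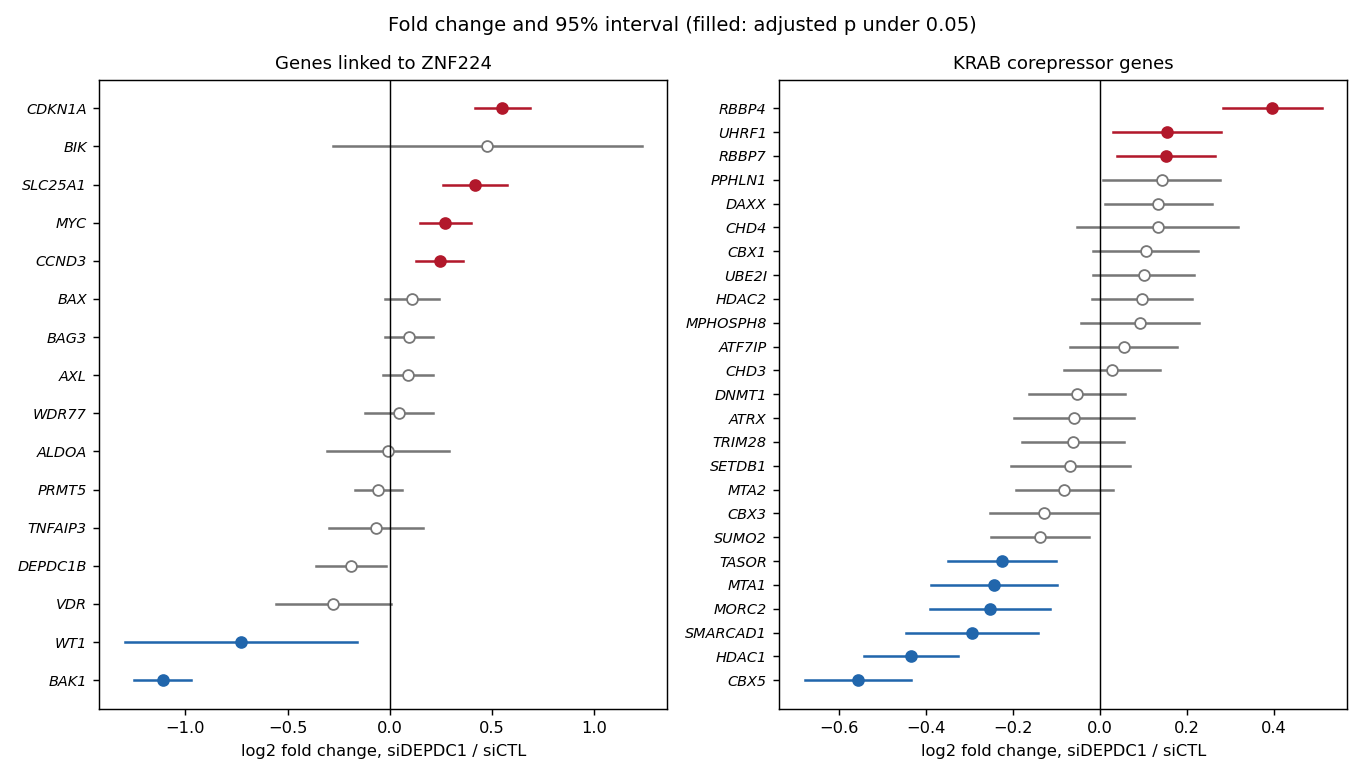
Log2 fold change of siDEPDC1 over siCTL (horizontal axis) with its 95% interval for tested genes tied to ZNF224 (left) and for the KRAB corepressor genes (right), with DEPDC1 and 2 other genes not drawn; filled red and blue points are higher and lower at an adjusted p under 0.05 (edgeR), open points did not pass. On the left BAK1 (−1.11) and CDKN1A (0.55) are at the ends and TNFAIP3 (−0.07) and PRMT5 (−0.06) are near 0; on the right CBX5 (−0.56) and RBBP4 (0.40) are at the ends.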

How the data were processed

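RNA was sequenced from 3 siCTL and 4 siDEPDC1 libraries, made with a TruSeq RNA kit and read as paired ends of 100 bases per the labels' protocols. The authors deposited raw counts per Ensembl gene and library. Per the submitters' processing notes the build was GRCh38, and the tools listed, without their roles, were STAR 2.7.9a, FastQC and DESeq2. The counter, its annotation, its strand setting and the RNA selection were not given in the sources used here.

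From these counts, genes were filtered with filterByExpr by group and tested by quasi-likelihood with edgeR 4.0.16 under R 4.3.3 (TMM factors, robust glmQLFit, glmQLFTest, two-sided, group as the only term), with Benjamini-Hochberg adjustment over all 16583 tested genes and a threshold of 0.05. Levels are CPM scaled with TMM factors. The SE of a log2 fold change is its size divided by the root of the F statistic, and 95% intervals use the same degrees of freedom. "Rose", "fell", "higher" and "lower" of a gene's test refer to the adjusted threshold.

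Coordinates, exons and transcripts came from GENCODE release 29, with 1 transcript kept per gene. That release held 58444 of the 60675 identifiers, and 42022 had a symbol. Promoters came from RefSeq.

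The 10 genes and the lists were chosen with earlier results of these data known. The text names the 10 genes, DEPDC1, list genes past the threshold, PRMT5, TNFAIP3, ALDOA, TRIM28, SETDB1 and the 3 genes most like ZNF224 (log2 CPM with a prior count of 2). For 2 list genes, included in the counts, no result is reported here. Other list genes are named after their values were seen. Alternatives were DESeq2 size factors, library size alone, no count filter, a minimum of 50 counts in all libraries of either group, removal of a GC and length trend (loess, span 0.4), DESeq2 1.42.0, limma-voom (limma 3.58.1), a replicate block, the same 6 libraries without it, and each library left out.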

Additional observations from a re-analysis of the deposited data

Results flagged for a closer look

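In the siDEPDC1 group, ZNF155 had 1 library far from the rest: replicate 2 was at 14.14 CPM and the other 3 at 16.54 to 16.92 CPM. The gap took up a share of 0.863 of the group's range, above Dixon's 95% critical value for 4 values. This was 1 of 34 sets of 4 values examined, and chance gives such a gap in about 1 of 20 sets.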

How the results depend on the processing

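Over 16 alternatives for 34 named genes, 450 of 540 values kept their direction and side of the threshold, 57 kept the direction but lost the call, 1 (TRIM28) gained a call and 32 changed sign. Every change of sign was in a gene that did not pass the test, with a log2 fold change between −0.21 and 0.07. Genes with few counts are limited most, ZNF223 above all. Whether its low counts come from depth or from reads shared with ENSG00000267022 was not tested.

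Of the 10 genes, 0 were lower under DESeq2, with the replicate block on numbers 1 to 3 and for the same 6 libraries without the block, and 0 to 1 when each library was left out. ZNF224 was at −0.23 with the block (adjusted p = 0.093) and −0.23 without it in these 6 libraries (0.065). With the block the calls of TASOR (−0.17, adjusted p = 0.058), ZNF428 (0.20, 0.074), WT1 (−0.67, 0.11), UHRF1 (0.15, 0.096) and ZNF225-AS1 (−0.20, 0.2) were also lost. Same-numbered libraries did not deviate together (r of −0.12 to 0.003 over 3 pairs). So few pairs, each taken as deviations from the mean of a small group, cannot decide whether the numbers pair the samples.

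Corepressor genes called higher numbered 9 with the GC and length trend removed, 2 with no count filter, and 1 to 6 with a library left out. Other cluster genes called higher numbered 0 under DESeq2, 3 with the GC and length trend removed, 2 with at least 50 counts, 2 with library size alone, 0 with no count filter, 0 with the block and 0 to 2 with a library left out. Other chromosome 19 ZNF genes called lower numbered 5 under DESeq2 and 7 to 16 with a library left out, and those called higher numbered 19 under DESeq2, 52 with the GC and length trend removed and 17 to 32 with a library left out. ZNF genes elsewhere called lower numbered 19 with the block and 19 to 35 with a library left out, and those called higher 11 under DESeq2 and 32 with the trend removed. The cause of these differences was not tested.

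Sign changes in log2 fold change were as follows. ZNF225 was at −0.0137 and ZNF226 at −0.0142 with no count filter. ZNF155 was at 0.0032 with DESeq2 size factors, 0.0062 under DESeq2, 0.0308 with the trend removed, 0.0140 with at least 50 counts and 0.0296 with library size alone. ZNF222 was at 0.0066 with the trend removed, 0.0217 with library size alone and 0.0104 under limma-voom. ALDOA was at 0.0059 with at least 50 counts and 0.0212 with library size alone. With a library left out, values ran from −0.0717 to 0.0474 for ZNF225, −0.057 to 0.0588 for ZNF226, −0.0583 to 0.1419 for ZNF234, −0.0334 to 0.0707 for ZNF155, −0.072 to 0.1613 for ZNF221, −0.0984 to 0.1202 for ZNF222, −0.4541 to 0.0094 for ZNF223, −0.1519 to 0.0403 for TNFAIP3 and −0.0704 to 0.0827 for ALDOA.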
